A study of Oryctolagus cuniculus with 4 samples.

Results

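CYP4B1 (ENSOCUG00000011201) was 1 of the 18475 genes in the count tables of the rabbit bladder and was taken by its symbol. It was chosen with its levels by cell class and by condition known, so these levels are given as a description and carry no test. Single cells from the bladder mucosa of adult New Zealand rabbits were sequenced in droplets to compare the cells of resting and wounded mucosa. Injury_1 and Injury_2 were taken on day 10 after a patch of mucosa had been cut out, when new urothelium had just closed the wound, and Normal_1 and Normal_2 came from resting mucosa. Each sample was 1 library from a piece of 2.0 by 2.0 cm, so each condition had 2 biological replicates and the injured condition had 1 time point.

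CYP4B1 is a cytochrome P450, a heme enzyme of the endoplasmic reticulum that takes electrons from the reductase POR and adds oxygen to fatty acids and other hydrophobic molecules. In rabbit it is known from lung and bladder, where it can turn aromatic amines and plant toxins such as ipomeanol into reactive products. The urothelium has KRT5-positive basal cells on the basement membrane and, towards the urine, cells that carry uroplakins, with fibroblasts of the lamina propria below.

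Captured RNA is tagged with unique molecular identifiers (UMIs), so that amplified copies count once. The samples held 5823 to 6884 barcodes and 28745017 to 47881609 UMIs, of which 4308 to 6081 cells were kept, and pairs of samples shared 8 to 13 barcode sequences. Cells were clustered and clusters were called "-like" from marker genes. Although all samples are labelled urothelium, epithelial-like cells made up only 9.31% of the kept cells in Injury_1 and 6.40% in Injury_2, and 10.2% in Normal_1 and 2.82% in Normal_2. Their markers KRT15, KRT18 and CDH1 were far above the level of the other classes, with KRT15 at a CPM (UMIs per 1000000 UMIs of the class) of 3463 ± 1348 (SD, n = 4) in epithelial-like and 31.7 ± 15.5 in fibroblast-like cells. Fibroblast-like cells were 28.6% to 54.2% of the cells, and their marker DCN was at 23120 CPM ± 7080 against 249 ± 136 in epithelial-like cells. Where 4 values stand together, they are in the order Injury_1, Injury_2, Normal_1, Normal_2.

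In the epithelium, CYP4B1 stood about an order of magnitude higher in both injured bladders than in both normal ones. All CYP4B1 UMIs of a class were summed per sample and divided by all UMIs of that class. Among epithelial-like cells this gave 3463 CPM in Injury_1 from 25103 UMIs and 566 cells, and 2519 CPM in Injury_2 from 14152 UMIs and 354 cells. Normal_1 was at 349 CPM from 1840 UMIs and 441 cells, and Normal_2 at 221 CPM from 666 UMIs and 170 cells. The injured samples did not overlap the normal ones, with means of 2991 CPM ± 667 (SD, n = 2) and 285 ± 90.6, a ratio of 10.5. On the log2(CPM + 10) scale the difference was 3.36.

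In fibroblast-like cells CYP4B1 went the other way. The level was 96.0 CPM in Injury_1 and 30.9 in Injury_2, from 1601 and 655 UMIs. It was 288 CPM in Normal_1 and 198 in Normal_2, from 1861 and 4667 UMIs. The groups again did not overlap, now with the injured samples below: the means were 63.5 CPM ± 46.0 and 243 ± 63.7 (SD, n = 2), and the log2 difference, injured minus normal, was -1.92. Within each sample epithelial-like cells were above fibroblast-like cells, by 36.1 times in Injury_1 and 81.5 times in Injury_2, but by only 1.21 times in Normal_1 and 1.11 times in Normal_2. As class averages, CYP4B1 was thus at a like level per UMI in both classes in resting mucosa, and far apart after injury. Both classes hold cells of unlike CYP4B1 level, described below, and the part of their mix in these ratios was not tested.

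The share of all CYP4B1 molecules that lay in the epithelium moved with this. Epithelial-like cells held 92.1% of the CYP4B1 UMIs of kept cells in Injury_1 and 94.2% in Injury_2, and 45.7% in Normal_1 and 11.8% in Normal_2. Fibroblast-like cells held 5.87%, 4.36%, 46.3% and 82.9% in the same order. These shares also follow how many cells of each class a library caught, with 3264 fibroblast-like against 170 epithelial-like cells in Normal_2.

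**Figure D1:**
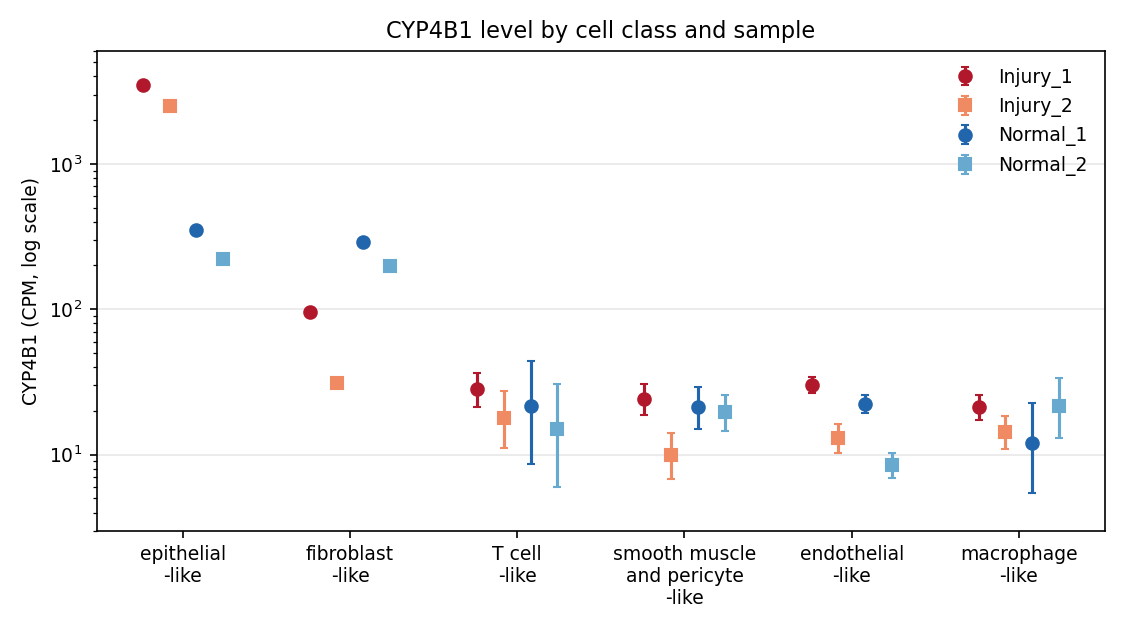
CYP4B1 level (CPM, log axis) in 6 cell classes, 1 point per sample with its 95% Poisson interval, which covers counting error only. Injured samples (red) lie above normal samples (blue) in epithelial-like cells and below them in fibroblast-like cells, while the other 4 classes sit between 8.51 and 30.1 CPM with overlapping groups.

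In 4 other classes CYP4B1 was low. Over the 4 samples the mean was 20.7 CPM ± 5.67 (SD) in T cell-like cells, 18.7 ± 6.15 in smooth muscle and pericyte-like cells, 18.5 ± 9.64 in endothelial-like cells and 17.3 ± 4.86 in macrophage-like cells. Injured and normal samples overlapped in each of them. In the order of the class means, epithelial-like cells were above fibroblast-like cells in 4 of 4 samples although the ranges over all samples overlapped, and the range of the fibroblast-like class lay wholly above that of the T cell-like class. The 4 lower classes overlapped one another and had no order beyond their spread. Neutrophil-like cells, of which the normal samples had only 5 and 15, gave 16 CYP4B1 UMIs in 143 cells of Injury_1 and 5 in 50 cells of Injury_2, at a median depth of 669 and 801.5 UMIs, and were too few and too shallow to compare. The 809 cells of unnamed clusters were at 28.6 and 12.8 CPM in the injured and 89.7 and 67.9 CPM in the normal samples, without overlap, and so lay above the low classes in normal mucosa.

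Free RNA in the droplets puts UMIs of abundant genes into cells that do not make them. The 4 low classes are taken here as a working background, and whether their cells make some CYP4B1 was not tested. They need not mark the floor: in Normal_2 the lowest cluster of fibroblast-like cells, described below, was at 1.18 CPM, against 8.51 in endothelial-like cells. CYP4B1 in endothelial-like cells was 0.484, 0.408, 0.516 and 0.488 UMIs per UMI of 6 epithelial markers in Injury_1, Injury_2, Normal_1 and Normal_2. The same ratio was 0.188 to 0.467 in T cell-like, 0.161 to 0.792 in macrophage-like and 0.315 to 2.32 in smooth muscle and pericyte-like cells. Fibroblast-like cells held 1.89 and 1.20 CYP4B1 UMIs per marker UMI in the injured and 5.59 and 13.1 in the normal samples, above the endothelial-like and the epithelial-like value of the same sample in 4 of 4 samples. The epithelial marker list, with 9 of its 13 genes in the tables, summed to 68.4 and 32.5 CPM in fibroblast-like cells of the injured and 102 and 21.9 CPM in those of the normal samples, overlapping between conditions. The part of free RNA in the CYP4B1 level of fibroblast-like cells was not tested.

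Marker RNA of other cells was also followed. In epithelial-like cells the fibroblast marker list, with 6 of its 7 genes in the tables and none at 0, summed to 1570 CPM in Injury_1 and 2373 in Injury_2, and 202 in Normal_1 and 2669 in Normal_2, overlapping between conditions. In fibroblast-like cells the mesothelial list had 2 or 3 of its 4 genes at 0 in every sample and summed to at most 5.95 CPM. Of the adipocyte list only ADIPOQ and LPL had rows, and together they were lower in injured fibroblast-like cells, at 256 and 125 CPM against 823 and 799. ADIPOQ, the defining one, was at only 0.465 to 1.86 CPM, so nearly all of this was LPL, the lipoprotein lipase. The part of LPL-positive cells in the CYP4B1 level of fibroblast-like cells was not tested.

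The share of mitochondrial UMIs also moved with the condition. The median was 8.14% and 9.24% in injured and 10.2% and 10.7% in normal epithelial-like cells, and 7.21% and 7.34% against 8.19% and 8.56% in fibroblast-like cells. With cells of at most 10% alone, the log2 difference of CYP4B1 was 2.90 in epithelial-like and -2.01 in fibroblast-like cells.

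In the injured epithelium more of the cells held CYP4B1. To set samples of unequal depth side by side, cells were thinned to 1000 UMIs, and the expected share of cells with at least 1 CYP4B1 UMI was taken. Among epithelial-like cells the share was 86.8% in Injury_1 and 79.4% in Injury_2, and 24.2% in Normal_1 and 16.6% in Normal_2, after 8 to 25 shallower cells per sample had been left out. Without thinning the shares were 96.8%, 96.9%, 60.5% and 48.8%, at median depths of 11932, 16316, 12916 and 19868 UMIs. The deepest epithelial cells, those of Normal_2, thus had the lowest share. In fibroblast-like cells the thinned shares were 9.22%, 3.33%, 22.5% and 15.1%, at median depths of 8015, 8524, 5088 and 7012 UMIs. Endothelial-like cells, which stand for background here, had 3.17%, 1.44%, 2.24% and 0.709% at median depths of 6404, 6258, 4645 and 6378 UMIs. The fibroblast-like share lay above this background in each sample, with the smallest gap in Injury_2.

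Cell by cell, CYP4B1 in the injured epithelium was broad rather than held by a few cells. The median epithelial-like cell held 39 CYP4B1 UMIs in Injury_1 and 37 in Injury_2, against 1 in Normal_1 and 0 in Normal_2. The share of epithelial-like cells with at least 10 CYP4B1 UMIs was 86.6% and 84.5% in the injured and 14.7% and 11.8% in the normal samples. At least 50 UMIs were found in 202 of 566 cells of Injury_1 and 120 of 354 cells of Injury_2, and in only 1 cell of each normal sample. The tenth of the cells richest in CYP4B1 held 25.8% and 24.9% of the UMIs in the injured samples, but 45.3% in Normal_1 and 62.6% in Normal_2. By this share normal epithelium was the more uneven one. The part of its low counts per cell and of its mix of KRT5 and uroplakin cells in this was not tested. In fibroblast-like cells the highest count of a cell was 9 to 36, and at least 2 UMIs were found in 18.0% and 5.29% of the cells of the injured and 35.4% and 29.4% of those of the normal samples.

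**Figure D2:**
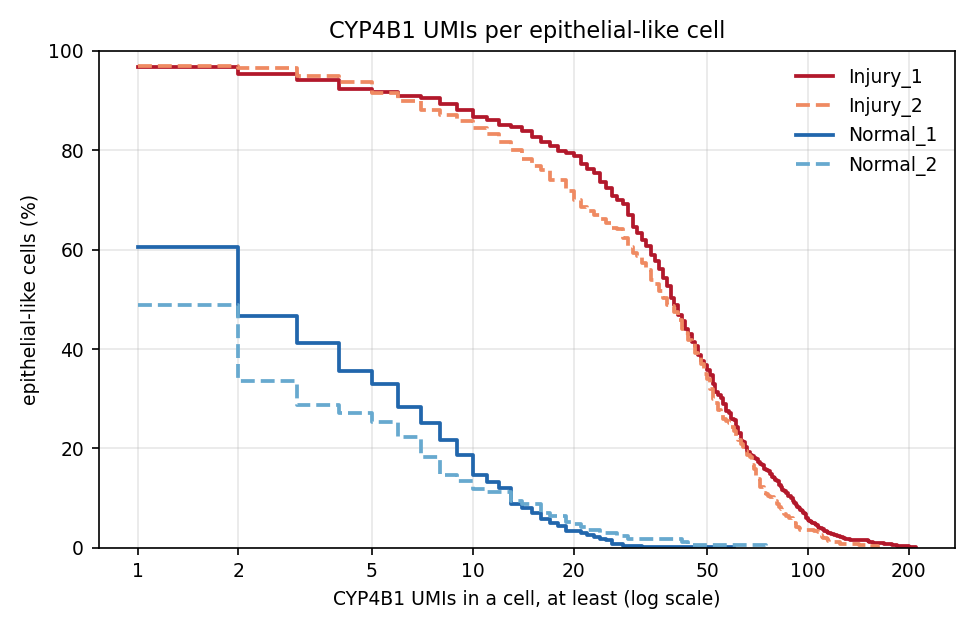
Share of epithelial-like cells (%) that hold at least the number of CYP4B1 UMIs on the x axis (log scale), 1 line per sample. At 10 UMIs the injured samples are at 86.6% and 84.5% and the normal ones at 14.7% and 11.8%, and both normal lines reach the floor before 100 UMIs.

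Within the epithelium CYP4B1 was higher in cells with uroplakin than in cells with KRT5. Epithelial-like cells were split by whether they held a UMI of KRT5, of a uroplakin (UPK1B or UPK3B), of both or of neither. With KRT5 alone, CYP4B1 was at 864 CPM in Injury_1 and 1592 in Injury_2, and 69.8 in Normal_1 and 53.6 in Normal_2, from 46, 65, 145 and 57 cells. With uroplakin alone it was at 4241, 3344, 756 and 813 CPM, from 392, 143, 119 and 25 cells. Cells with uroplakin were thus higher in every sample, by 2.28, 1.07, 3.26 and 3.69 on the log2(CPM + 10) scale. The mean difference was 2.58 ± 1.17 (SD, n = 4) and was positive in 4 of 4 samples, with p = 0.13 in a two-sided exact sign-flip permutation test, which is the smallest p that 4 samples allow. The design can therefore not reach the 0.05 threshold here.

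Cells with both kinds of UMI were at 2931 and 2750 CPM in the injured samples, and at 369 and 632 CPM in the normal ones, where only 14 and 6 cells were of this kind. Cells with neither were at 2189, 1802, 322 and 161 CPM. In the 3 gates with at least 10 cells in every sample both injured samples lay above both normal ones, and the ratio of the means was 19.9 for KRT5 alone, 8.27 for neither and 4.83 for uroplakin alone. The mix of the gates also differed between conditions, and its part in the level of the epithelial-like class was not tested. Uroplakin-only cells outnumbered KRT5-only cells by 392 to 46 in Injury_1 and 143 to 65 in Injury_2, and KRT5-only cells outnumbered them by 145 to 119 in Normal_1 and 57 to 25 in Normal_2. Because a uroplakin or KRT5 UMI is found more readily in a deep cell, a cell without one may still make the gene.

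**Figure D3:**
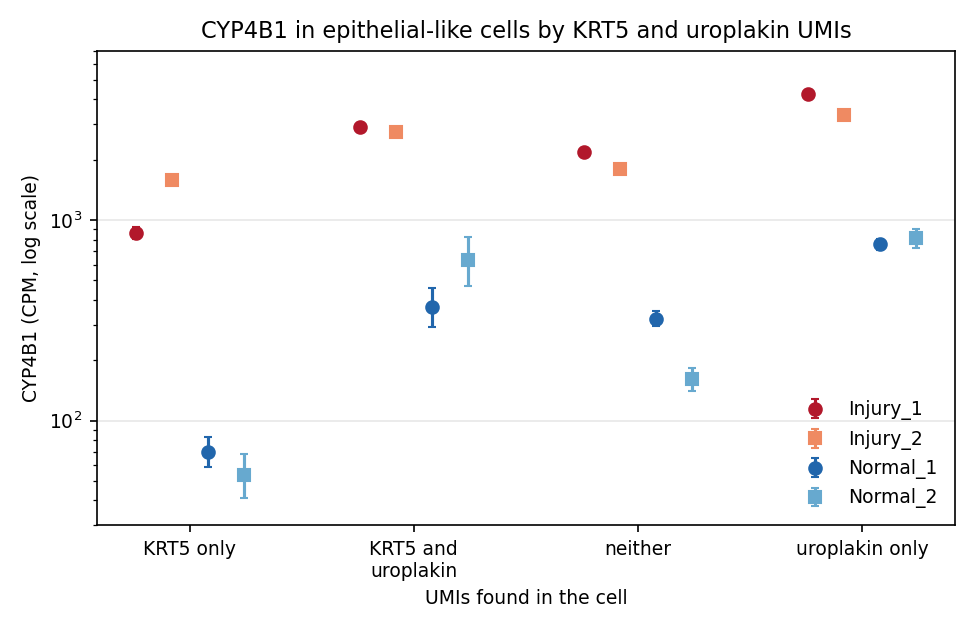
CYP4B1 level (CPM, log axis) in epithelial-like cells split by KRT5 and uroplakin UMIs, 1 point per sample with its 95% Poisson interval for counting error. Injured samples lie above normal ones in every gate, of which the one with both kinds of UMI rests on only 6 cells in Normal_2, and in each sample the uroplakin-only cells lie above the KRT5-only cells.

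The clusters gave the same picture from another side, and since CYP4B1 was among the genes used to cluster, they are described only. The epithelial-like cells fell into a cluster led by SPP1, CRISP3, HSD11B2, GSTA5 and CYP4B1 itself, and a basal one led by KRT5, LAMB3 and SERPINB5. CYP4B1 in the first was at 4718 and 3291 CPM in the injured and 635 and 598 CPM in the normal samples. In the KRT5-led cluster it was at 1253 and 874 CPM in the injured and 35.0 and 25.2 CPM in the normal samples. Endothelial-like cells of the same normal samples were at 22.3 and 8.51 CPM, and the thinned share of cells with CYP4B1 was 3.20% and 2.39% in the normal KRT5-led cluster against 2.24% and 0.709% in these. The KRT5-led cluster made up 23.7% and 25.1% of the injured epithelium, 40.1% of that of Normal_1 and 58.2% of that of Normal_2.

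The fibroblast-like cells were not uniform either. Normal CYP4B1 was highest in the cluster led by COCH, APOD and CP, at 709 and 700 CPM. This was above the average of the epithelial-like class in the same samples, at 349 and 221 CPM. It was also above the SPP1-led epithelial-like cluster, at 635 and 598 CPM, but below the uroplakin-only epithelial-like cells, at 756 and 813 CPM. In the injured samples the COCH-led cluster was at 80.9 and 42.2 CPM. The cluster led by LVRN, FMO2 and ADH6 stood at 407 and 451 CPM in the normal and 188 and 58.2 CPM in the injured samples. The cluster led by MFAP5, SFRP2 and PCOLCE2 was at 287 and 310 CPM in the normal and 103 and 26.4 CPM in the injured samples. These clusters shared the direction of the class, and so did the one led by EREG, TCF21 and EDIL3, at 176 and 74.5 CPM against 66.7 and 13.8. The cluster led by PTPRQ, HHIP and WIF1 was at 10.8 and 1.18 CPM in the normal and 27.5 and 8.72 CPM in the injured samples, at or below background with overlapping groups. CYP4B1 of normal fibroblast-like cells thus lay in some clusters and was no higher than in the low classes in the PTPRQ-led one.

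A gate on marker UMIs was chosen after the values had been seen, on genes that led these clusters. It is therefore a description and no separate support. Fibroblast-like cells with SFRP2 or PCOLCE2 but none of WIF1, HHIP and PTPRQ were at 417 and 443 CPM in the normal and 108 and 37.8 CPM in the injured samples. Cells with the reverse pattern were at 15.9 and 10.3 CPM in the normal and 32.0 and 6.45 CPM in the injured samples. Cells with both kinds of UMI were at 199 and 143 CPM in the normal and 41.0 and 22.4 CPM in the injured samples. Those with neither were at 266 and 179 CPM against 32.9 and 14.4. The mix of clusters differed too: the COCH-led cluster was 17.4% and 9.47% of normal and 27.4% and 22.9% of injured fibroblast-like cells, and the PTPRQ-led one 21.3% and 31.6% of normal and 9.14% and 12.9% of injured ones. The part of this mix in the level of the class was not tested.

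**Figure D4:**
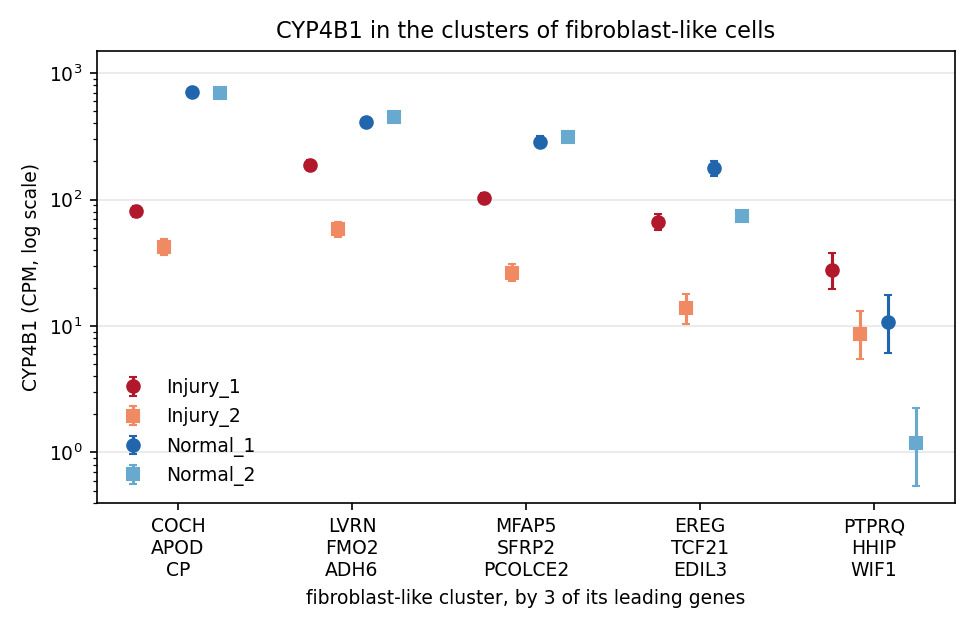
CYP4B1 level (CPM, log axis) in the 5 clusters of fibroblast-like cells, named by 3 of their leading genes, 1 point per sample with its 95% Poisson interval for counting error. Normal samples lie above injured ones in 4 clusters, up to 709 CPM in the COCH-led cluster, and the PTPRQ-led cluster lies at or below background with overlapping groups.

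Enzymes that work beside CYP4B1 were then examined in the same class sums with the edgeR quasi-likelihood test. In epithelial-like cells 167 of 7041 genes passed (2.37%; Benjamini-Hochberg adjusted p under 0.05), 64 (0.909%) higher and 103 (1.46%) lower in the injured samples, and 1452 (20.6%) had an unadjusted p under 0.05. In fibroblast-like cells none of 8768 genes passed in edgeR (0%), where 954 (10.9%) had an unadjusted p under 0.05. DESeq2 called 259 of 13618 genes in these cells. The fitted log2 change of CYP4B1, as a description, was 3.16 in epithelial-like and -1.80 in fibroblast-like cells. CYP4B1 was fitted and tested among these genes, but its p is not given, since this contrast was used to choose it. Of 178 other genes on 7 lists of related enzymes and regulators, 77 had a row under the symbol listed (rabbit genes may stand under other symbols or under an identifier alone, since only 9771 of the 18475 genes have a symbol) and 58 were tested in epithelial-like cells, of which 2 were higher and 3 lower (8.62%). The lists were chosen with earlier results of these data known, so this share is a description. The median log2 change of the 58 genes was -0.43, against -0.0026 over all genes tested, likewise as a description. In fibroblast-like cells 61 were tested and 0 passed in edgeR, where 9 had an unadjusted p under 0.05, and 0 in DESeq2, with a median of -0.08.

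The heme and electron transfer list had 9 members tested in the epithelium. ALAS1, the first enzyme of heme synthesis, was at 284 and 245 CPM in the injured and 99.9 and 75.2 CPM in the normal samples. It rose with a log2 change of 1.35 (SE 0.22, edgeR adjusted p = 0.033), though not without Injury_1 or without Injury_2, where the highest adjusted p was 0.19. HMOX1, which breaks heme down, was at 2.62 and 1.42 against 15.4 and 11.9 CPM and fell, with a log2 change of -2.97 (SE 0.42, edgeR adjusted p = 0.026), a call lost without Injury_2 at an adjusted p of 0.077. In fibroblast-like cells HMOX1 was at 43.3, 28.2, 34.7 and 21.9 CPM, and the part of their RNA in its epithelial-like level was not tested. CYB5A, a small cytochrome that can hand electrons to P450s, was at 1122, 811, 1036 and 1026 CPM in the epithelium and did not pass (log2 change -0.36, SE 0.27). POR, the electron donor of CYP4B1, is outside the naming rule and was picked after its values were seen: it was at 11.9, 10.5, 17.8 and 9.28 CPM, with overlapping groups (log2 change -0.51, SE 0.35). UROD, a later enzyme of heme synthesis, was at 37.7, 44.2, 41.5 and 34.8 CPM and did not pass (log2 change -0.14, SE 0.27). PPOX and FECH of the same pathway, picked after their values were seen, did not pass either (log2 changes 0.49, SE 0.39, and -0.70, SE 0.45).

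In edgeR no other member of its own family found by symbol passed the test. Of 15 other CYP4 genes listed, CYP4A5, CYP4V2 and CYP4X1 had rows under these symbols. CYP4V2, a fatty acid hydroxylase, was at 1.79 and 2.67 CPM in injured and 3.79 and 2.98 CPM in normal epithelium, with a log2 change of -0.85 (SE 0.50, edgeR adjusted p = 0.38). CYP4A5 reached at most 9.61 CPM and CYP4X1 was at 0 in the epithelium, and both were below the count filter of the test. Without that filter edgeR called CYP4A5 higher, as it did 460 of all 12053 genes. In an annotation of the rabbit genome (assembly mOryCun1.1), CYP4B1 lies next to EFCAB14 and CYP4A6, with CYP4A5 and CYP4A7 beyond. Counts of near-identical family members can be split between copies, which was not tested here.

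Among the other P450s 1 of 8 tested members rose, where 64 of 7041 genes (0.909%) did. A single call does not describe the list. CYP51A1, the sterol demethylase of cholesterol synthesis, was at 102 and 97.9 CPM in the injured and 31.9 and 15.9 CPM in the normal samples (log2 change 1.84, SE 0.30, edgeR adjusted p = 0.037). This call was lost without Injury_1 or without Injury_2, with adjusted p up to 0.097. CYP1B1, a P450 of xenobiotics and estrogens, was at 211, 130, 140 and 45.4 CPM with overlapping groups and did not pass (log2 change 0.68, SE 0.47). CYP2J1 was nearly level at 59.9, 49.7, 50.1 and 47.1 CPM (log2 change -0.08, SE 0.24).

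Of 12 tested genes of alcohol and aldehyde oxidation, 1 fell in the injured epithelium, where 103 of 7041 genes (1.46%) did. ALDH2, the mitochondrial aldehyde dehydrogenase, was at 21.2 and 14.6 CPM in the injured and 66.8 and 69.3 CPM in the normal samples (log2 change -2.19, SE 0.29, edgeR adjusted p = 0.025). This call was lost without Injury_2 (adjusted p = 0.073). ALDH1A1, ADH5 and AKR1A1, named by the rule for the highest CPM of the list, did not pass in edgeR, with log2 changes of -1.06 (SE 0.27), 0.02 (SE 0.22) and -0.16 (SE 0.27). For ALDH1A1, a retinaldehyde dehydrogenase, this depended on the tool: it was at 265 and 335 CPM in the injured and 516 and 532 CPM in the normal samples, with an adjusted p of 0.095 in edgeR, 0.022 in DESeq2 and 0.017 in edgeR without the count filter.

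On the eicosanoid list 1 of 6 tested members fell, where 103 of 7041 genes (1.46%) did. PLA2G4A, the phospholipase that releases arachidonic acid, was at 3.17 and 3.56 CPM in the injured and 33.6 and 17.6 CPM in the normal epithelium (log2 change -3.15, SE 0.38, edgeR adjusted p = 0.019, and 0.079 with the limit of 10% mitochondrial UMIs). In fibroblast-like cells PLA2G4A was at 41.2, 31.1, 27.1 and 26.6 CPM. PTGS2, a cyclooxygenase, was at 8560, 4603, 7477 and 5127 CPM in fibroblast-like cells and only 94.8, 64.1, 104 and 147 CPM in epithelial-like cells. The part of fibroblast RNA in the epithelial-like level of PLA2G4A or PTGS2 was not tested. In epithelial-like cells PTGS2 did not pass in edgeR (log2 change -0.95, SE 0.32, adjusted p = 0.17). Its value moved with the choice of cells, and it was called lower by the marker gate (log2 change -2.13, adjusted p = 0.018), with doublets removed (-1.42, adjusted p = 0.049), without Normal_1 (-1.27, adjusted p = 0.040) and without the count filter (-0.85, adjusted p = 0.044), but was at -0.33 with the limit of 10% mitochondrial UMIs. LTA4H of leukotriene synthesis did not pass (log2 change -0.51, SE 0.30). None of the 9 conjugation and detoxification genes passed in edgeR or DESeq2, where 2 had an unadjusted edgeR p under 0.05, and edgeR without the count filter called 2 lower. None of the 13 regulators passed in edgeR, where 7 had an unadjusted p under 0.05, but DESeq2 called 2 higher and 1 lower. Over all 12053 genes DESeq2 called 197 higher and 287 lower, and edgeR without the count filter 460 higher and 476 lower. An unadjusted edgeR p under 0.05 was found for 20.6% of the 7041 genes tested. The glutathione transferases MGST1, MGST3 and GSTO1 had log2 changes of 0.68, -0.86 and -0.27. Among the regulators GATA3, KLF5 and PPARG, transcription factors of the urothelium, had 0.98, 0.38 and -0.51. GATA3 was at 2067 and 1604 CPM in the injured and 968 and 611 CPM in the normal samples. It was called higher by DESeq2 (adjusted p = 0.015) and by edgeR without the count filter (adjusted p = 0.0064), and not in edgeR as used here (adjusted p = 0.12).

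**Figure D5:**
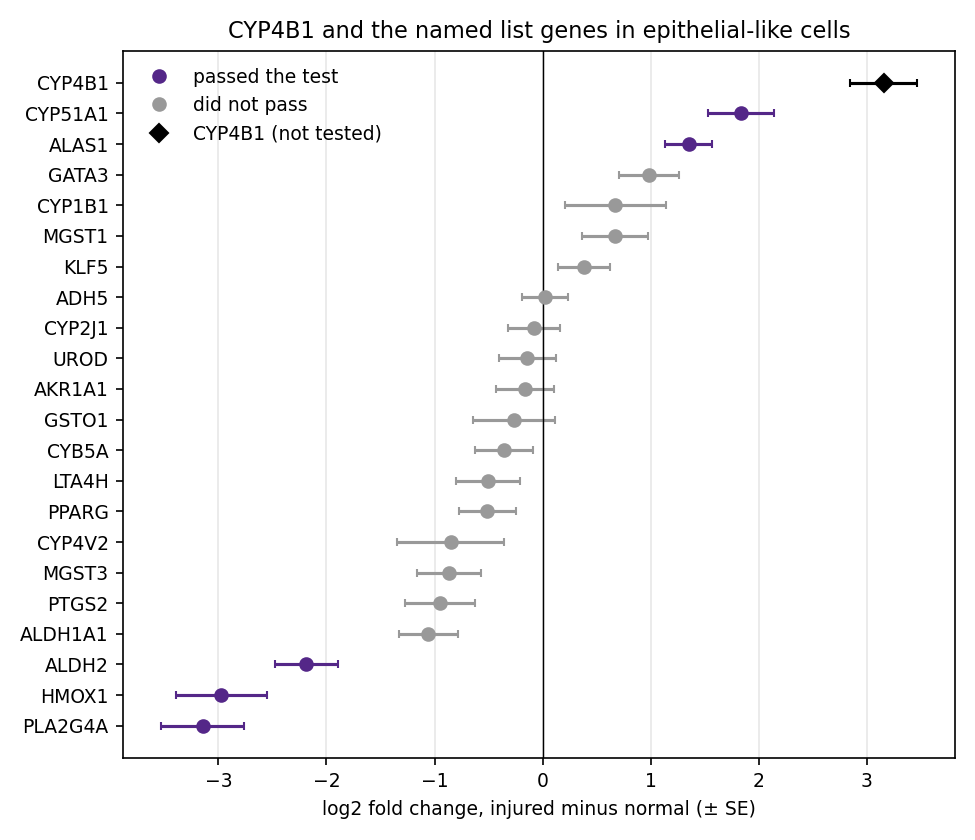
Log2 fold change in epithelial-like cells, injured minus normal, with its standard error, for CYP4B1 and for the named list genes that were tested. CYP4B1 was fitted and tested with them but is marked as not tested because its p is not given, and its bar is a description only. CYP51A1 and ALAS1 passed as higher and PLA2G4A, HMOX1 and ALDH2 as lower. CYP4B1, at 3.16, was chosen for this contrast, so its place among them is no result.

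Genes with a pattern like that of CYP4B1 were sought over 24 points, the 6 classes in each of the 4 samples, by Pearson correlation of log2(CPM + 10) among 4094 genes. The points of a sample share a library and its depth, and the correlations are a description. GRAMD1C (0.94), CCDC120 (0.93), CHCHD6 (0.93), DSC2 (0.92) and NAALADL2 (0.92) came first, then NDNF, SLITRK6, SPTLC3, NPEPPS and COX14 (0.92 to 0.90). GRAMD1C was at 99.6, 61.6, 38.9 and 10.9 CPM in epithelial-like cells of Injury_1, Injury_2, Normal_1 and Normal_2, and DSC2, a cadherin of desmosomes, at 178, 124, 85.1 and 45.1 CPM. In fibroblast-like cells GRAMD1C was at 2.72 to 13.3 CPM with overlapping conditions. SPTLC3, a subunit of serine palmitoyltransferase, was at 54.3, 31.2, 24.1 and 14.6 CPM in epithelial-like cells. In fibroblast-like cells SPTLC3 was at 12.8, 10.6, 20.6 and 29.0 CPM. Both classes had the direction of CYP4B1 without overlap, which the correlation that found this gene favours. NDNF was at 5.50 and 8.62 CPM in normal epithelial-like and 6.04 and 16.8 CPM in normal fibroblast-like cells. Without the epithelial-like class the 10 most alike genes were other ones, led by CCN4 (0.91), MMP1 (0.90) and OMD (0.90) over 20 points, and shared 0 with the first list.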

How the data were processed

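Single-cell RNA sequencing of 4 samples was analysed, 2 injured and 2 normal. The authors deposited UMI counts per gene and barcode, made with Cell Ranger (6.0.1 per the file headers). The genome build is not given in the sources used here. The counts are whole numbers, not normalized. Barcodes with at least 500 UMIs, 200 genes and at most 15% of UMIs from 13 mitochondrial genes were kept (21945 cells), by the limits the study states. The study states fewer kept cells, and any further steps of its filter are not given in the sources used here. Cells were normalized to 10000 UMIs, integrated over 2000 variable genes and clustered (30 components, resolution 0.8) with Seurat 5.3.0 in R 4.3.3. The 27 clusters were named by markers, by a rule settled after the data had been seen, and 5 clusters with 809 cells stayed unnamed. Doublets, scored with Scrublet in scanpy 1.11.5 (Python 3.11.15), were kept and removed as an alternative.

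UMIs were summed per class and sample, for classes with at least 20 cells in every sample (10 for gates; levels of a smaller gate are given without a ratio). CPM are per 1000000 UMIs of the class, and 95% Poisson intervals and the precision they give cover counting error only. Differences are of log2(CPM + 10). Genes were tested with edgeR 4.0.16 (filterByExpr, TMM, robust quasi-likelihood fit, Benjamini-Hochberg adjustment, threshold 0.05); DESeq2 1.42.0 was an alternative. The tests were checked on simulated counts. Likeness was computed for genes of at least 20 CPM in a class. CYP4B1 itself and all gene lists were chosen with earlier results of these data known. Genes were named by a rule: CYP4B1, the 10 genes most like it, list members past the threshold, the 3 highest members of each list in epithelial-like cells, and CYP4 genes with a row. A listed gene is not reported here and was left out of the lists and their counts. Alternatives were other limits on cells, doublet removal, other clusterings, marker gates, scalings, pseudocounts, filters, a replicate block and leaving out each sample. The sample numbers do not pair the samples. Other experiments of the paper were not used here. Figures were drawn with matplotlib 3.10.9.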

Additional observations from a re-analysis of the deposited data

Results flagged for a closer look

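CYP4B1 moved in opposite directions in 2 cell classes of the same libraries. Injured minus normal, the log2(CPM + 10) difference was 3.36 in epithelial-like and -1.92 in fibroblast-like cells, with both injured samples above both normal ones in the first class and below them in the second. The difference between the classes was not tested, since the choice of the gene had used these values.

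CYP4B1 was also found in barcodes that the limits on cells had left out of the comparisons of the report. Those with too many mitochondrial UMIs entered 1 alternative, a marker gate without that limit (3.18 in epithelial-like and -1.30 in fibroblast-like cells on the log2 scale). These held 1982 CPM in Injury_1 and 1747 CPM in Injury_2, against 346 CPM in Normal_1 and 84.4 CPM in Normal_2. They carried 14.4%, 24%, 25.4% and 5.01% of all CYP4B1 UMIs of the 4 samples in that order. Of the left-out barcodes 168, 176, 304 and 58 passed a gate on epithelial markers, and CYP4B1 in these stood at 5255, 3278, 770 and 387 CPM, so the injured samples were above the normal ones here too.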

How the results depend on the processing

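With 2 rabbits per condition, 1 library decides much, and depth limits calls for genes of few UMIs. CYP4B1 kept its direction in all 15 alternatives in epithelial-like cells (2.90 to 3.68), in all 15 in fibroblast-like cells (-2.61 to -1.23), and in all 15 for epithelial-like minus fibroblast-like cells (1.82 to 3.75). For injured minus normal, the value that moved by more than the replicate spread was 2.90 in epithelial-like cells, with at most 10% mitochondrial UMIs, which kept 903 of 1531 cells. For epithelial-like minus fibroblast-like cells the SD used, 3.07, spans the samples of both conditions and is no replicate spread. Leaving out each sample gave 3.05 to 3.68, -2.61 to -1.23 and 1.82 to 3.75. For uroplakin minus KRT5 cells all 10 alternatives were positive (2.07 to 3.08; exact sign-flip p of 0.13 or, with 3 samples, 0.25, the smallest possible), and 2.20 to 3.08 with samples left out. The thinned share of epithelial-like cells with CYP4B1 differed by 62.7 percentage points between conditions, by 42.2 without thinning, and by 58.8 to 66.5 with samples left out.

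Counts of called genes depended more on the settings. In epithelial-like cells 936 genes were called without a filter on low counts, 484 by DESeq2, 254 by the marker gate, 85 at the stricter mitochondrial limit and 79 to 572 with 1 sample left out, the lone sample of a condition being assumed to vary like the others. Without Injury_1 there were 79, without Normal_1 443 and without Normal_2 572. With UMI totals in place of TMM factors, which moved the median of all genes to 0.23 in epithelial-like and -0.12 in fibroblast-like cells, 108 of 193 genes were higher, against 64 of 167. In fibroblast-like cells edgeR called 575 without a filter, DESeq2 259, and 15 to 56 with 1 sample left out (24 without Injury_1, 56 without Injury_2, 15 without Normal_1 and 31 without Normal_2), against 0. With the sample number as a replicate block, 184 epithelial and 140 fibroblast genes were called. With 2 pairs, deviations of same-numbered samples correlated at 0.091 and 0.19, and the samples share only a number. Of the 10 genes most like CYP4B1, 3 were shared by Spearman correlation and 5 by class means. The cause of these changes was not tested.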
